A study of Mus musculus with 19 samples.

Results

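The 9 genes described here, Cx3cr1, Gpr34, Siglech, Fcrls, Selplg, Tmem119, Slc2a5, Sparc and Olfml3, are markers of homeostatic microglia, the surveying state of these cells in the healthy brain. They were taken by symbol from 2 deposited expression tables of 23951 genes each, and all 9 were found in both. The study sequenced RNA from microglia of the mouse hippocampus, isolated by cell sorting on CD11b and CD45, in 5 groups of 3 libraries, to ask how the transcription factor PU.1 shapes microglia in a model of neurodegeneration. At 4.5 months the groups were CK-p25 mice with a PU.1 conditional knockout (Cx3cr1CreER+/-; CK-p25; PU.1 fl/fl, below CK-p25 PU.1 cKO), CK-p25 mice (Cx3cr1CreER+/-; CK-p25) and CK mice (Cx3cr1CreER+/-; CK). All 3 groups received tamoxifen at 50 mg/kg on 5 days when p25 was induced, and brains were taken 6 weeks after that. At 3 months the groups were PU.1 fl/fl; Cx3cr1CreER+/- mice and Cx3cr1CreER+/- mice, given the same tamoxifen course and collected 1 week later. The labels do not say how many mice went into a library, so p-values measure the spread between libraries, part of which may be technical. The ages were deposited as separate tables and are described apart.

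Homeostatic microglia express a set of surface receptors and secreted proteins, not all of which are confined to microglia. The set is maintained by TGF-beta signalling and by myeloid transcription factors that include PU.1, the product of Spi1. Microglia near dying neurons or protein deposits are known to lower many of these genes while they raise genes of phagocytosis and lipid handling. In CK-p25 mice the Cdk5 activator p25 is switched on in forebrain neurons, which then degenerate. The Cre recombinase in every group is driven by the Cx3cr1 promoter, which is also active in other cells of the myeloid lineage. Widely used Cx3cr1CreER alleles are inserted at the Cx3cr1 gene itself and reduce its output. The labels do not state which allele was used, and each of the 5 groups carries it on 1 chromosome (+/-).

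Values are FPKM, fragments scaled to transcript length and to the mapped fragments of the library. Differences are on the log2(FPKM + 1) scale from limma, a linear model with a moderated spread, with Benjamini-Hochberg adjustment over the genes that averaged 1 FPKM or more in their table (10894 at 4.5 months, 10845 at 3 months). A difference passed when the adjusted p was below 0.05, and each is the first-named group minus the other, with its standard error (SE). All 9 genes passed the filter in both tables and none was listed at 0 in any library.

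Total read counts are not given. As a rough guide to depth, the most common ratio of low-expressed genes to the first library of their table, shared by 8.27% to 16.3% of those genes, was 0.895 to 1.29 at 4.5 months and 0.763 to 1.01 at 3 months, a higher ratio meaning fewer reads. CK-p25 replicate 3 held the ratio of 1.29 and had 42.1% of genes at 0 against 31.6% to 36.4% in the other libraries of its age. It was also the only library of its age with a different run prefix, which may mark another sequencing run. General microglial markers were abundant in every library. The summed level of 10 general microglial markers was 32700 to 38900 FPKM in CK-p25 PU.1 cKO, 36100 to 39600 in CK-p25 and 30100 to 32900 in CK, and 33100 to 38500 and 11200 to 20400 FPKM in the 3-month groups labelled PU.1 cKO and control. Summed neuronal markers reached at most 34.2 FPKM in any of the 15 libraries, pericyte markers at most 2.11, oligodendrocyte lineage markers at most 553 and lymphocyte markers at most 67.6 FPKM. Astrocyte markers reached 298, monocyte markers 166, endothelial markers 27.9 and erythrocyte markers 18.1 FPKM. Border macrophage markers reached 1630 FPKM and neutrophil markers 10000 FPKM, each in a 3-month library labelled control. In CK-p25 replicate 2 neutrophil markers summed to 774 FPKM. The targeted gene, Spi1, measured 165, 152 and 224 FPKM across CK-p25 PU.1 cKO libraries, 251, 208 and 298 FPKM in CK-p25 and 256, 229.7 and 251 FPKM in CK. It measured 409, 338 and 337 FPKM in the 3-month libraries labelled PU.1 cKO and 261, 105 and 248 FPKM under the control label, which goes against those labels. At that age the labels also contradict each other, as set out with the 3-month values below. The share of all genes called higher among those called depended on scaling. In CK-p25 against CK it was 56.3% as deposited and 45.6% after quantile normalization, in CK-p25 PU.1 cKO against CK 57.2% and 45.9%, and at 3 months 41.1% and 53.0%.

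CK-p25 microglia were first set against CK microglia. Of the 9 genes 7 fell, where 13.7% of all genes tested fell, and the list median was -0.92 beside 0.00 for all genes. The falls ranged from a fructose transporter at 23.7% of its CK level to the secreted Olfml3 at 69.3%. All 9 genes were lower in every CK-p25 library than in every CK library, a lack of overlap in that direction that 22.5% of all genes showed. In sorted bulk samples, fewer cells that express a gene and less RNA per cell cannot be told apart. Of the 10 general microglial markers 6 rose and 2 fell in the same comparison, beside 17.6% and 13.7% of all genes. Csf1r, C1qa and P2ry12 are among the genes that stand on both that list and the companion list below. Monocyte markers summed to 15.9 to 30.7 FPKM in CK-p25 against 3.87 to 13.4 FPKM in CK, with 1 of 4 tested genes, Fn1, past the threshold, and none of 7 border macrophage markers passed. The part of such cells in the differences was not tested.

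Among the receptors, Cx3cr1, the receptor for the neuronal chemokine fractalkine, measured 737, 530.0 and 600.0 FPKM in CK-p25 and 1249, 1163 and 1141 FPKM in CK. It fell to 52.1% of its CK level (log2 -0.94 ± 0.25, adjusted p = 0.0232). Gpr34, a G protein-coupled receptor for lysophosphatidylserine, measured 1148, 940.3 and 1906 FPKM in CK-p25 and 2601, 2355 and 2275 FPKM in CK. CK-p25 replicate 3 was far above the other CK-p25 libraries and still below each CK library. The difference of -0.92 ± 0.23 passed (adjusted p = 0.0177). Siglech, a sialic acid-binding lectin that signals through the adaptor DAP12, measured 511, 446 and 699 FPKM in CK-p25 against 706, 759 and 768 FPKM in CK. Here too CK-p25 replicate 3 was the highest of its group, just below the lowest CK library. The Siglech difference of -0.46 ± 0.16 did not pass (adjusted p = 0.0577). Fcrls, a member of the Fc receptor-like family that carries a scavenger receptor domain, measured 2101, 2106 and 1839 FPKM in CK-p25 against 2258, 2107 and 2132 FPKM in CK. The highest CK-p25 library almost touched the lowest CK library, and the difference of -0.11 ± 0.10 (95% interval -0.35 to 0.13) did not pass (adjusted p = 0.477).

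Selplg encodes PSGL-1, the surface glycoprotein that selectins bind. It measured 873, 672 and 968 FPKM in CK-p25 and 2335, 2206 and 2301 FPKM in CK, and fell to 36.3% of its CK level (log2 -1.46 ± 0.14, adjusted p = 0.000178). Tmem119, a transmembrane protein used widely as a microglial marker, measured 1118, 823 and 1035 FPKM in CK-p25 and 2962, 2876 and 3010.1 FPKM in CK. In each CK library it was the 15th most abundant gene, against positions 61 to 73 in CK-p25. Its difference was -1.58 ± 0.14 (adjusted p = 0.000143). Slc2a5, the fructose transporter GLUT5, had the largest difference of the 9, -2.08 ± 0.25 (adjusted p = 0.000624). Its levels were 146, 116 and 102 FPKM in CK-p25 against 659, 432 and 465 FPKM in CK. The highest CK library stood well above the other CK libraries, and the groups lay far apart.

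The secreted proteins fell less than the 5 other genes that passed. Sparc, a collagen-binding matricellular protein, measured 1331, 1179.7 and 1302 FPKM in CK-p25 and 2177, 1817 and 1867 FPKM in CK, a difference of -0.62 ± 0.11 (adjusted p = 0.00405). Olfml3, a secreted olfactomedin-like glycoprotein, measured 1633, 1428 and 1340.1 FPKM in CK-p25 and 2209, 2028 and 2100.4 FPKM in CK, a difference of -0.53 ± 0.11 (adjusted p = 0.00674). Sparc is also made by astrocytes and endothelial cells. Summed astrocyte markers were 84.9 to 298 FPKM in CK-p25 against 47.2 to 66.1 FPKM in CK, and endothelial markers 12.1 to 27.9 against 19.7 to 22.4 FPKM. Of 6 tested astrocyte markers 1 rose, Gfap, and none fell. Of 5 tested endothelial markers 2 rose, Flt1 and Kdr, and 1 fell, Pecam1. Beside these, 17.6% of all genes rose and 13.7% fell. The part of these cells in the Sparc values was not tested.

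**Figure D1:**
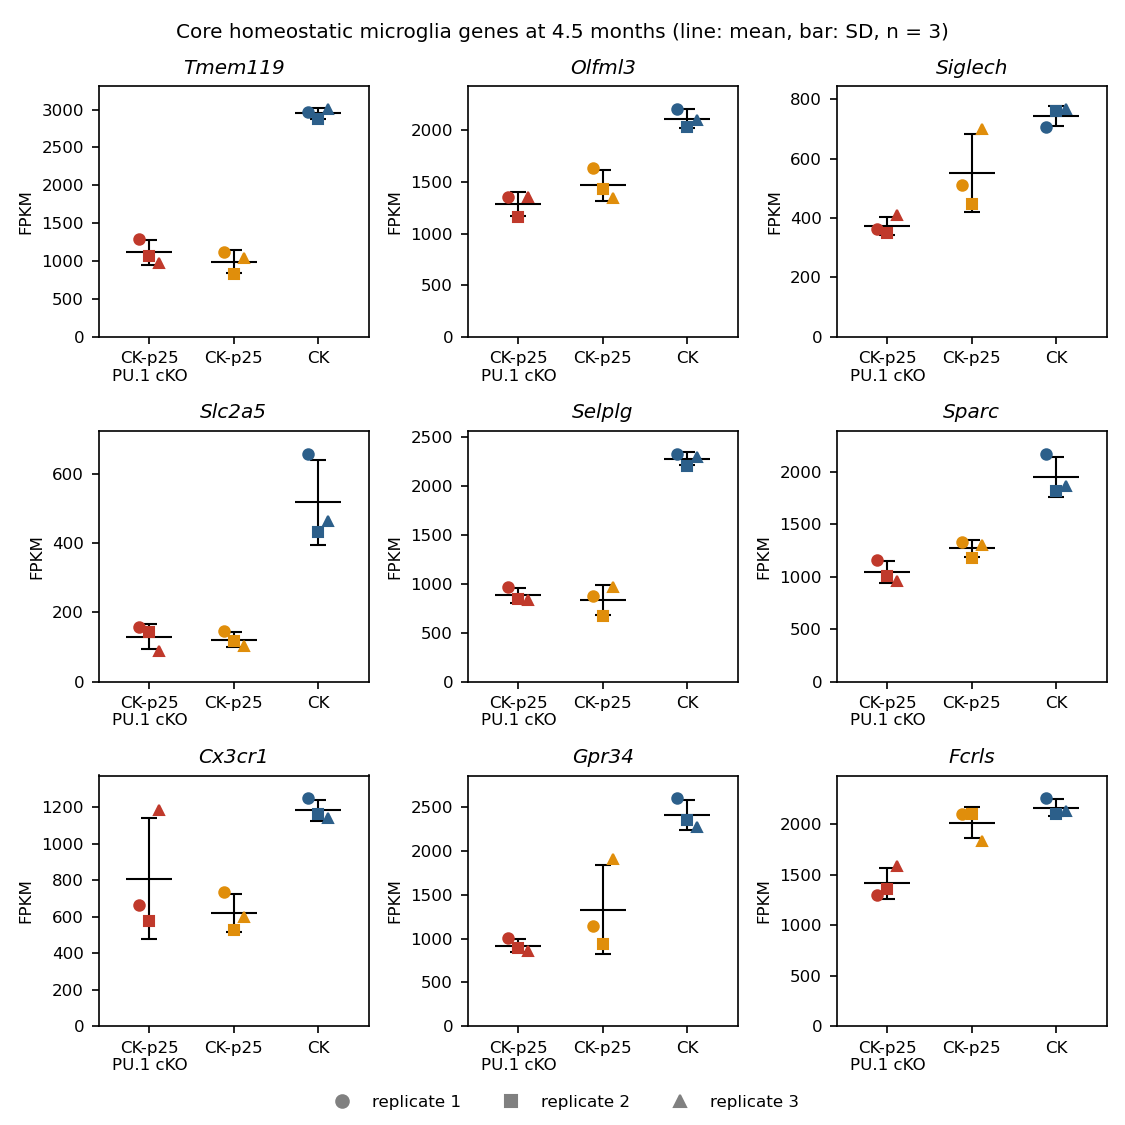
FPKM of each of the 9 genes (vertical axes, linear from 0) in the 3 libraries of CK-p25 PU.1 cKO, CK-p25 and CK at 4.5 months, with the group mean as a line and the SD as a bar. Tmem119 sits at 822.5 to 1296 FPKM in both CK-p25 groups and at 2876 to 3010.1 FPKM in CK, while Fcrls in CK-p25 (1839 to 2106 FPKM) lies close to CK (2107 to 2258 FPKM).

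Without CK-p25 replicate 3, which leaves libraries of a single run prefix, 8 of the 9 genes passed. Genes called lower in all then numbered 2162 of 10905, against 1490 of 10894 with every library. Siglech then fell by 0.64 on the log2 scale (adjusted p = 0.00214), and Fcrls stood at -0.04. After quantile normalization all 9 passed, beside 1947 of 10894 genes called lower in all. Differences were then larger for Olfml3 (-0.94), Sparc (-0.99), Siglech (-0.86) and Fcrls (-0.43). Some calls were not secure. Olfml3 lost its call with no filter on low genes (adjusted p = 0.0547). Cx3cr1 lost its call without CK-p25 replicate 2 or any 1 of the 3 CK replicates (adjusted p up to 0.0725), and Gpr34 without CK-p25 replicate 1, CK replicate 1 or CK replicate 2 (up to 0.0614) and with only the compared groups in the model (0.0576).

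The order of the 9 levels, which FPKM allows to be compared per length, differed between the groups. In CK it ran from Tmem119 (2949 ± 67.9 FPKM, SD, n = 3) through Gpr34, Selplg, Fcrls, Olfml3 and Sparc to Cx3cr1, Siglech and Slc2a5 (519 ± 123 FPKM). Neighbours from Gpr34 down to Sparc overlapped in their libraries. In CK-p25 Fcrls stood first (2015 ± 152 FPKM), apart from Olfml3 (1467 ± 150.4 FPKM), and Tmem119 followed Gpr34 and Sparc (992 ± 152 FPKM), with libraries that overlapped those of Selplg (837 ± 151 FPKM). In CK-p25 PU.1 cKO each neighbouring pair from Fcrls (1416 ± 156 FPKM) down to Cx3cr1 (809 ± 329.6 FPKM) overlapped, and Siglech (374 ± 30.7 FPKM) and Slc2a5 (130.0 ± 36.7 FPKM) lay below.

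Ratios between genes of the same library do not depend on how libraries are scaled to each other by a constant factor. The ratio of Tmem119 to Fcrls was 0.999, 0.788 and 0.612 in CK-p25 PU.1 cKO, 0.532, 0.391 and 0.563 in the CK-p25 libraries, and 1.31, 1.36 and 1.41 in CK. The 3 groups did not overlap in this ratio, and CK-p25 was the lowest. The ratio of Fcrls to Olfml3 was 0.96, 1.18 and 1.17 in CK-p25 PU.1 cKO, 1.29, 1.47 and 1.37 in CK-p25 libraries and 1.02, 1.04 and 1.02 in CK, so that CK-p25 stood above both other groups and the genes did not keep fixed proportions. With 3 libraries a group, an exact permutation test of a single ratio between a pair of groups could not pass. No permutation test was run.

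CK-p25 PU.1 cKO microglia were then set against the same CK libraries, which this comparison shares with the one above. Of the 9 genes 8 fell, where 13.3% of all genes tested fell, and the list median was -0.99 beside 0.00 for all genes. For 8 of the 9 every CK-p25 PU.1 cKO library lay below every CK library, which held for 29.1% of all genes in that direction. Slc2a5, at 158, 144 and 88.3 FPKM across CK-p25 PU.1 cKO libraries, again had the largest difference (-2.01 ± 0.25, adjusted p = 0.000732). Tmem119 measured 1296, 1072 and 974 FPKM (-1.41 ± 0.14), Gpr34 1010.2, 888 and 863 FPKM (-1.39 ± 0.23) and Selplg 972, 847 and 832 FPKM (-1.37 ± 0.14), each with an adjusted p of at most 0.00265. These 4 genes were at between 24.9% and 38.7% of their CK level.

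The genes that did not pass between CK-p25 and CK did pass here. Siglech measured 363, 351 and 409 FPKM across CK-p25 PU.1 cKO libraries and was at 50.2% of its CK level (log2 -0.99 ± 0.16, adjusted p = 0.00213). Fcrls measured 1297, 1359 and 1592 FPKM, at 65.2% of CK (-0.62 ± 0.10, adjusted p = 0.00296). Sparc fell by 0.90 and Olfml3 by 0.72 on the log2 scale (adjusted p = 0.000661 and 0.00157). Cx3cr1 was the exception. It measured 666, 576 and 1187 FPKM across CK-p25 PU.1 cKO libraries against 1249, 1163 and 1141 FPKM in CK, so that replicate 3 lay within the CK range and replicates 1 and 2 far below it. The difference of -0.62 ± 0.25 did not pass (adjusted p = 0.0976). Without replicate 3 Cx3cr1 fell by 0.93 (adjusted p = 0.00444), after quantile normalization it also passed (-0.99, adjusted p = 0.0188), and without replicate 2 it stood at -0.41 (adjusted p = 0.281). In the same replicate 3, Spi1 was also the highest of its group, at 224 FPKM against 165 and 152. That library held the lowest value of its group for 5 of the genes described here, and the highest for 4, Cx3cr1 included. The 5 were Tmem119, Gpr34, Slc2a5, Selplg and Sparc. Its sums of neuronal, oligodendrocyte lineage, endothelial, pericyte, lymphocyte and erythrocyte markers were the highest of the group. So was its sum of astrocyte markers, at 185 FPKM against 184 FPKM in replicate 2. Border macrophage, monocyte and neutrophil markers were highest in replicate 2. The part of Spi1, or of these cells, in the Cx3cr1 value of replicate 3 was not tested.

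**Figure D2:**
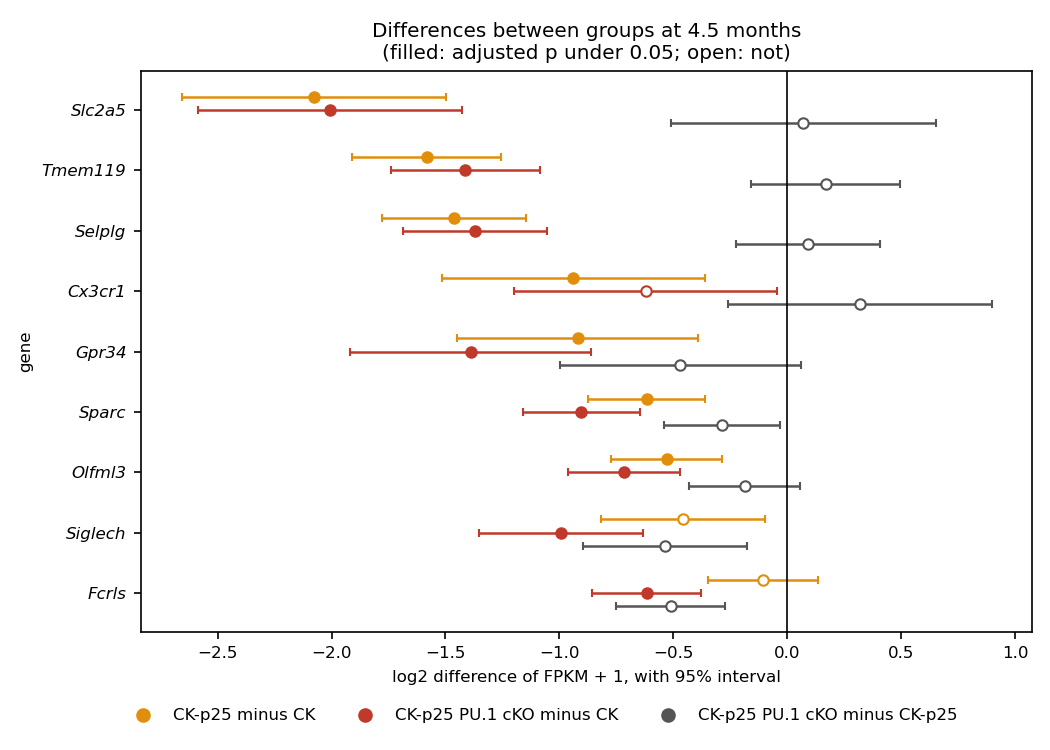
Log2 differences of FPKM + 1 (horizontal axis) with 95% intervals for the 9 genes (vertical axis, ordered by CK-p25 minus CK) in the 3 comparisons of the 4.5-month groups. Filled points passed the threshold: 7 of 9 in CK-p25 minus CK, 8 of 9 in CK-p25 PU.1 cKO minus CK, and 0 of 9 in CK-p25 PU.1 cKO minus CK-p25.

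The direct comparison of CK-p25 PU.1 cKO with CK-p25 asks what PU.1 loss changes in microglia of the degenerating hippocampus. Spi1 itself differed by -0.49 ± 0.17, at 71.3% of its CK-p25 level, and did not pass (adjusted p = 0.745), and its libraries overlapped. None of the 9 genes passed with limma, and 0% of all genes tested did. At an unadjusted p under 0.05 there were 3 of the 9, and 671 of 10894 genes in all. Those 3, Fcrls, Siglech and Sparc, were also lower in every CK-p25 PU.1 cKO library than in every CK-p25 library, a lack of overlap in that direction seen in 4.56% of all genes. Fcrls averaged 1416 ± 156 FPKM over CK-p25 PU.1 cKO and 2015 ± 152 FPKM in CK-p25 (SD, n = 3 each), a difference of -0.51 ± 0.10 with a 95% interval of -0.75 to -0.27 (limma, unadjusted p = 0.00112, adjusted p = 0.745). Siglech averaged 374 ± 30.7 FPKM and 552 ± 131 FPKM in the same order of groups (-0.54 ± 0.16, limma, unadjusted p = 0.0088, adjusted p = 0.745). Sparc averaged 1044 ± 107 FPKM over CK-p25 PU.1 cKO and 1271 ± 80.2 FPKM in CK-p25 (-0.29 ± 0.11, limma, unadjusted p = 0.0324, adjusted p = 0.745).

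The other 6 genes overlapped between these groups. The 95% intervals of their log2 differences were -0.16 to 0.50 for Tmem119, -0.23 to 0.41 for Selplg, -0.51 to 0.65 for Slc2a5, -0.26 to 0.90 for Cx3cr1, -1.0 to 0.06 for Gpr34 and -0.43 to 0.06 for Olfml3. Except for Gpr34, each of these intervals lies above the estimated difference of the gene between CK-p25 and CK. That estimate has an interval of its own and rests on the same CK-p25 libraries. For Olfml3 the interval of CK-p25 minus CK was -0.77 to -0.29, which overlaps the interval given here. Differences for Slc2a5, Selplg and Olfml3 were small enough for their sign to turn under some alternatives. Markers of other cells whose sums did not overlap between these groups were those of monocytes, summed at 34.7 to 51.1 FPKM in CK-p25 PU.1 cKO and 15.9 to 30.7 FPKM in CK-p25, and of erythrocytes, at 8.91 to 18.1 and 0 to 0.118 FPKM. Border macrophage markers summed to 172 to 501 FPKM in CK-p25 PU.1 cKO and 128 to 184 FPKM in CK-p25. The part of such cells in the values of the 9 genes was not tested.

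Promoter windows from RefSeq (build GRCm38.p6, 250 bases before to 50 after a gene's start) were found for 6 of the 9 genes. They are shown for Fcrls, Siglech and Sparc, the genes without overlap in this comparison, because PU.1 is known to bind sequences with the purine-rich core GAGGAA. Letters in capitals are matches to GAGGAA on either strand.
Fcrls (chr3:87263475-87263774, minus strand): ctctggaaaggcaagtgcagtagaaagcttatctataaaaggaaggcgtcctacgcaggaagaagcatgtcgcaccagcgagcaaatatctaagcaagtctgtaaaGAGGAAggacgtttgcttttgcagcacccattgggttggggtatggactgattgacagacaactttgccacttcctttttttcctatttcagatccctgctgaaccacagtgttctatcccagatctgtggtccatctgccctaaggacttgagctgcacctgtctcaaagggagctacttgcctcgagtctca
Siglech (chr7:55767934-55768233, plus strand): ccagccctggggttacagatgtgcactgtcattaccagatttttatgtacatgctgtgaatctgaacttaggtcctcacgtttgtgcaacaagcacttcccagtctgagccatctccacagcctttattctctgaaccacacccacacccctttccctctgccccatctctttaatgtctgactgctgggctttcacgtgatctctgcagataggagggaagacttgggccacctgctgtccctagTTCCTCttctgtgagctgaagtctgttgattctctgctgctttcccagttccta
Sparc (chr11:55420031-55420330, minus strand): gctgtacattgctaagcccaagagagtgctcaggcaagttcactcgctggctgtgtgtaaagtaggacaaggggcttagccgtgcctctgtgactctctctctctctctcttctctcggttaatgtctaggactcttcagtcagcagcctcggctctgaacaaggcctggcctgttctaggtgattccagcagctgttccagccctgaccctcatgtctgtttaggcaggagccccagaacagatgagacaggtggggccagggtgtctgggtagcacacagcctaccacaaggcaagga
The Fcrls window held GAGGAA once on the strand shown, with its first base 144 bases before the start. The Siglech window held it once on the opposite strand, starting 4 bases before the start. The Sparc window held none. Altogether 2 of the 6 windows had a match, beside 28.3% of 27025 windows of this length, taking the first listed window of each gene. A match is a description of the letters and says nothing about binding in these cells.

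Taken per library, the 9 genes together made up 1.38%, 1.36% and 1.44% of all summed FPKM in CK-p25 PU.1 cKO, 1.56%, 1.44% and 1.51% in the CK-p25 libraries, and 3.43%, 3.31% and 3.25% in CK. Both CK-p25 groups thus stood well below CK, and they touched each other at 1.44%. The sum over all genes, which enters these shares, also differed. It was 545930 to 601177 FPKM in CK-p25 PU.1 cKO, 573405 to 650063 in CK-p25 and 475007 to 500482 in CK. The 9 genes alone summed to 7401 to 8278, 8241 to 9791 and 15744 to 17158 FPKM in the same order. Spread within groups was partly shared between the genes: CK replicate 1 held the highest value of its group for 7 of the 9 genes, CK replicate 2 the lowest for 6, and CK-p25 replicate 2 the lowest for 6. The sum over all genes was also the highest of its group in CK replicate 1 (500482 FPKM). It was the lowest of the group in CK replicate 2 (475007) and CK-p25 replicate 2 (573405). CK replicate 1 and CK-p25 replicate 2 also stood apart in markers of other cells. CK replicate 1 had border macrophage markers at 7.61 FPKM, against 284 and 334 FPKM in CK replicates 2 and 3, and neutrophil markers at 0.145 FPKM, against 106 and 70.5. In CK-p25 replicate 2 neutrophil markers summed to 774 FPKM, against 0 and 1.7 FPKM in replicates 1 and 3, and oligodendrocyte lineage (553 FPKM) and astrocyte markers (298 FPKM) were the highest of the group. The part of these cells, or of the library sums, in the spread of the 9 genes was not tested. At 3 months the share was 3.82%, 3.68% and 3.98% under the PU.1 cKO label and 2.07%, 1.77% and 1.87% under the control label.

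**Figure D3:**
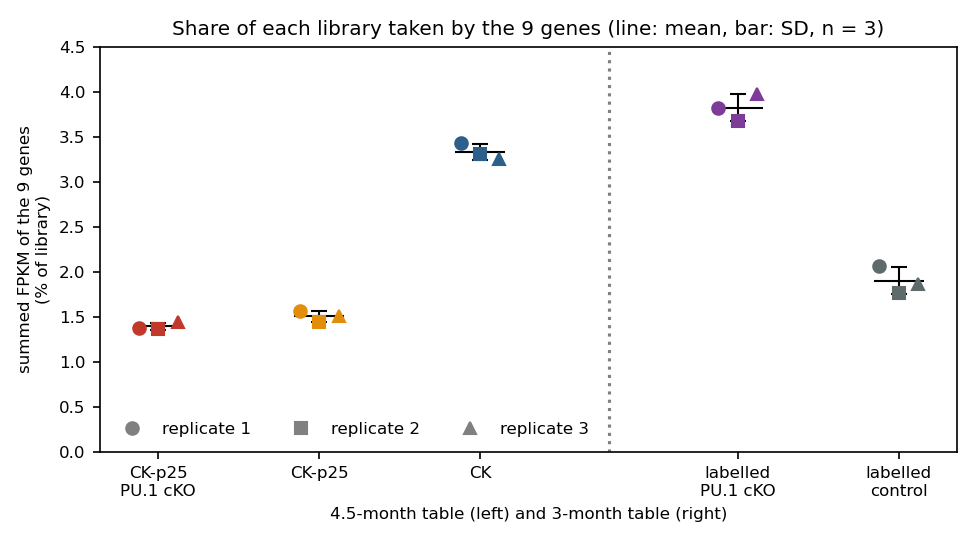
Summed FPKM of the 9 genes as a percentage of the summed FPKM of each library (vertical axis, from 0), with the group mean as a line and the SD as a bar. At 4.5 months CK libraries (3.25% to 3.43%) stand apart from CK-p25 PU.1 cKO (1.36% to 1.44%) and CK-p25 (1.44% to 1.56%), and at 3 months the libraries labelled PU.1 cKO (3.68% to 3.98%) stand above those labelled control (1.77% to 2.07%).

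A wider list of 32 companion genes of homeostatic microglia, among them purinergic receptors, TGF-beta signalling genes and transcription factors, was described beside the 9. The list, like the 9 genes, was chosen with earlier results of these data known. In CK-p25 against CK 21 of the 32 fell and 4 rose (median -0.67), beside 13.7% and 17.6% of all genes. In CK-p25 PU.1 cKO against CK 23 fell and 4 rose (median -0.81), beside 13.3% and 17.8%. None passed in CK-p25 PU.1 cKO against CK-p25 (median -0.07). There 8 of the 32 had an unadjusted p under 0.05 (limma), beside 671 of 10894 genes in all. When replicate 3 of CK-p25 PU.1 cKO was left out 1 was past the threshold, beside 0.231% of all genes.

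The largest falls of the companion list in CK-p25 were in the uroplakin gene Upk1b (-3.14 ± 0.56), Ecscr (-2.62 ± 0.40) and the ADP receptor gene P2ry12 (-2.12 ± 0.14). P2ry12 measured 848, 783 and 791 FPKM across CK-p25 PU.1 cKO libraries, 983, 717 and 999 FPKM in CK-p25 and 4301, 3673 and 3637 FPKM in CK, so both CK-p25 groups lay far below CK. The largest rises in CK-p25 were in Lag3, an immune checkpoint receptor (2.49 ± 0.31, 154 ± 59.9 FPKM in CK-p25 and 25.5 ± 1.81 FPKM in CK), and Serpine2, a protease inhibitor (1.37 ± 0.08).

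**Figure D4:**
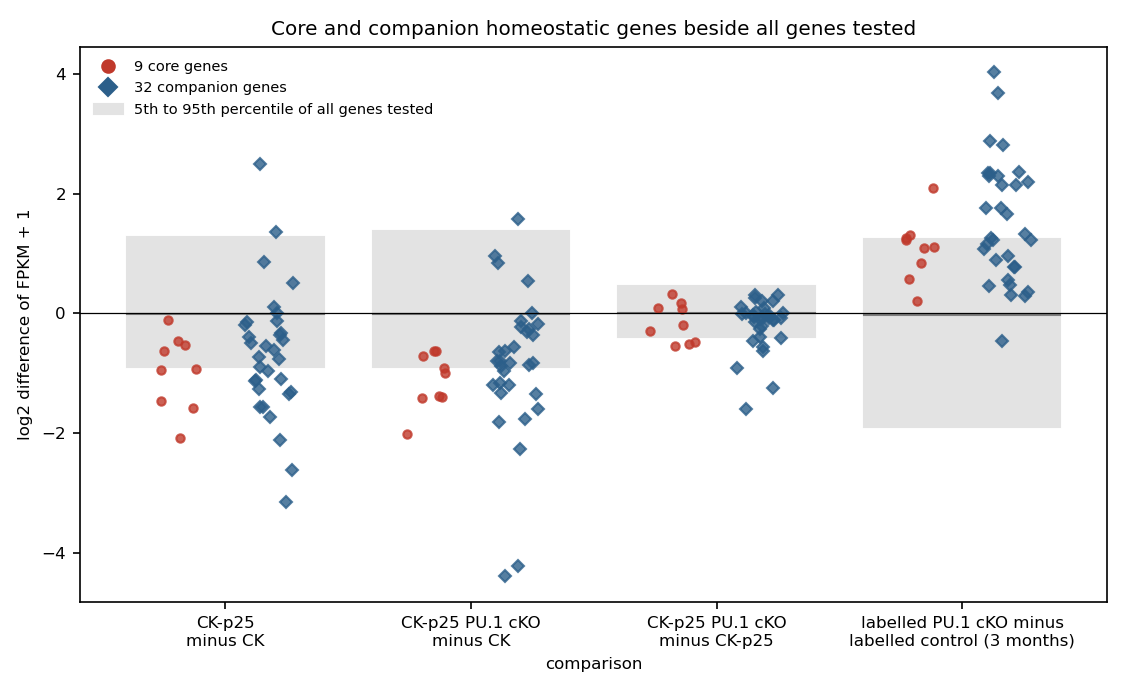
Log2 differences of FPKM + 1 (vertical axis) of the 9 core genes and the 32 companion genes in each of the 4 comparisons (horizontal axis), with the 5th to 95th percentile of all genes tested as a grey box. Core genes lie at -2.08 to -0.11 in CK-p25 minus CK and at 0.21 to 2.10 in labelled PU.1 cKO minus labelled control.

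Relatives and partners of the 9 genes went different ways. Slc2a1 (GLUT1) rose to 73.2, 83.2 and 66.1 FPKM in CK-p25, against 34.7, 38.7 and 38.3 FPKM in CK (0.97 ± 0.11, adjusted p = 0.0004). Slc2a6, another hexose transporter gene, rose to 31.4 to 32.5 FPKM in CK-p25, against 2.26 to 2.63 FPKM in CK (3.26 ± 0.26, adjusted p = 7.49e-05). Slc2a5 thus fell while these relatives rose, and Slc2a3, Slc2a8 and Slc2a9 did not pass. Tyrobp, which encodes the DAP12 adaptor of Siglech, rose by 1.09 ± 0.16 in CK-p25 (adjusted p = 0.00137). Among 4 tested genes of the Siglec family 2 rose, Siglec5 (2.46 ± 0.41) and Siglec1 (1.62 ± 0.42), and 2 fell, Siglece (-2.22 ± 0.37) and Cd33 (-0.71 ± 0.09).

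Olfml2b fell by 1.27 on the log2 scale in CK-p25 and Fcrl1 by 0.93, each the only tested relative of its family in this table. The chemokine receptor gene Cxcr4 rose (1.95 ± 0.31). The SPARC relative Sparcl1 stood at 0.51 ± 0.94 and did not pass (adjusted p = 0.715), and P2ry14, the tested relative of Gpr34, differed by 1.65 ± 0.18 (adjusted p = 0.00037), with 2.26 to 3.41 FPKM in CK-p25 and at most 0.327 FPKM in CK. The ligand genes Cx3cl1 (at most 1.14 FPKM as a group mean at 4.5 months), Selp and Sele were below the filter at that age. Neurons are the main known source of the fractalkine that Cx3cl1 encodes, and platelets and endothelium of the selectins.

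In CK-p25 PU.1 cKO against CK the same relatives passed in the same directions, with Slc2a6 at 3.46 ± 0.26, Slc2a1 at 0.83 ± 0.11, Tyrobp at 1.01 ± 0.16, Siglece at -3.12 ± 0.37 and Siglec5 at 1.32 ± 0.41. The glucose transporter gene Slc2a3 passed only in this comparison of the pair sharing the CK libraries (0.67 ± 0.20, adjusted p = 0.0308), and the difference between the comparisons for it did not pass (CK-p25 PU.1 cKO minus CK-p25, 0.34 ± 0.20, adjusted p = 0.745).

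At 3 months the libraries labelled PU.1 cKO were set against those labelled control, to ask what PU.1 deletion changes in microglia without p25. The label conflict bears on every direction here. Titles and genotype labels put the value columns named for CX3CR1 with the PU.1 cKO samples and the columns named for PU.1 with the controls, while the source names of the same samples point the other way. Titles were followed here. Under the reading by source name each difference below would carry the opposite sign. Spi1, the targeted gene, stood 0.92 ± 0.35 above the control label under the PU.1 cKO label and did not pass (adjusted p = 0.0853).

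Of the 9 genes 7 were higher under the PU.1 cKO label, where 12.4% of all genes tested were, and the list median was 1.11 beside -0.03 for all genes. The groups did not overlap for 8 of the 9, which held for 21.9% of all genes in that direction. Cx3cr1 had the largest difference. It measured 2185, 2045 and 2316 FPKM under the PU.1 cKO label and 783, 284 and 594 FPKM under the control label (2.10 ± 0.37, adjusted p = 0.00649), with labelled control replicate 2 the lowest by far. Selplg measured 3817, 3027 and 3381 FPKM under the PU.1 cKO label and 1614, 995 and 1590.3 FPKM under the control label (1.31 ± 0.27, adjusted p = 0.0112). Gpr34 measured 2799, 2164 and 2906 FPKM under the PU.1 cKO label and 1217, 969.6 and 1085 FPKM under the control label (1.26 ± 0.22, adjusted p = 0.00678). In both genes the lowest library labelled PU.1 cKO was well above the highest labelled control.

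Siglech was tight in both groups, at 1042, 969.8 and 995 FPKM under the PU.1 cKO label and 488, 391 and 410.5 FPKM under the control label (1.23 ± 0.18, adjusted p = 0.00367). Fcrls measured 3282, 2803 and 3542 FPKM under the PU.1 cKO label and 1629, 1085 and 1844 FPKM under the control label (1.11 ± 0.27, adjusted p = 0.0207). Slc2a5 differed by 0.84 ± 0.18 (adjusted p = 0.0132), from 475 to 599.8 FPKM under the PU.1 cKO label and 278 to 314 FPKM under the control label. Tmem119 measured 4701, 3659 and 3940.3 FPKM under the PU.1 cKO label and 2305, 1159 and 2617 FPKM under the control label, and its difference of 1.09 ± 0.35 passed narrowly (adjusted p = 0.0496).

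The secreted proteins had the smallest differences at this age. Sparc measured 1705, 1628 and 1976 FPKM under the PU.1 cKO label and 1308, 1192 and 1056 FPKM under the control label (0.58 ± 0.21, adjusted p = 0.0701), without overlap. Olfml3 measured 1964, 2026 and 2563 FPKM under the PU.1 cKO label and 1900.1, 1588 and 2184 FPKM under the control label, which overlap (0.21 ± 0.23, adjusted p = 0.513), and its sign turned after quantile normalization (-0.28). Within libraries, the ratio of Cx3cr1 to Olfml3 was 1.11, 1.01 and 0.903 under the PU.1 cKO label and 0.412, 0.179 and 0.272 under the control label. The ratio of Tmem119 to Fcrls overlapped, at 1.43, 1.31 and 1.11 and at 1.41, 1.07 and 1.42 in the same order of groups.

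**Figure D5:**
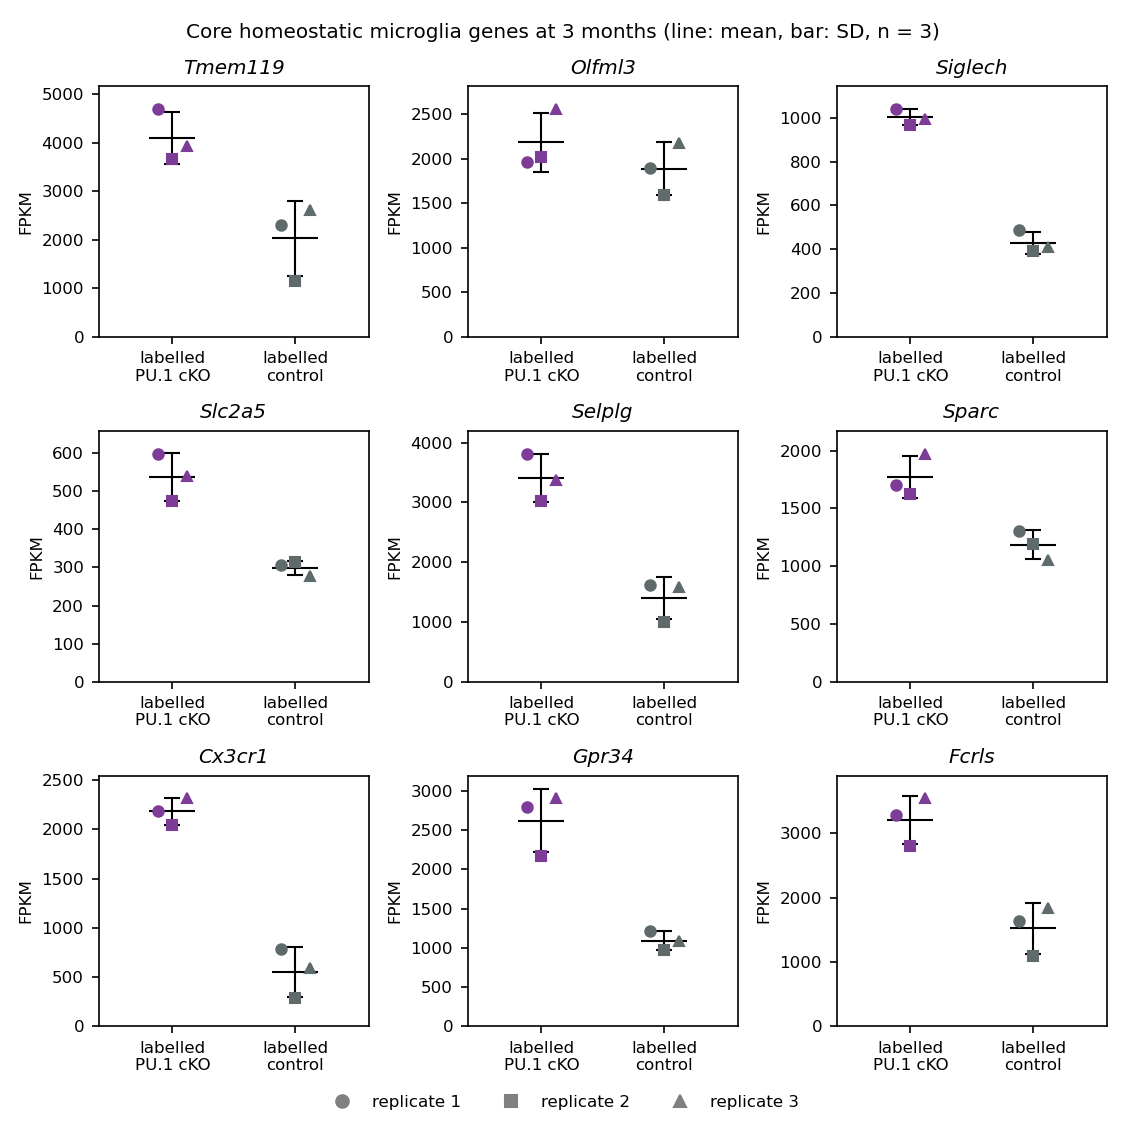
FPKM of each of the 9 genes (vertical axes, linear from 0) in the 3 libraries labelled PU.1 cKO and the 3 labelled control at 3 months, with the group mean as a line and the SD as a bar. Groups are separate for 8 genes and overlap for Olfml3 (1964 to 2563 FPKM and 1588 to 2184 FPKM).

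Of the companion genes 23 of 32 were higher under the PU.1 cKO label and none was lower (median 1.29), beside 12.4% and 17.8% of all genes. An unadjusted p under 0.05 (limma) was found for 28 of them, beside 4768 of 10845 genes in all. The largest differences were in Lag3 (4.02 ± 0.17) and the adhesion receptor gene Gpr56 (3.67 ± 0.21). Lag3 measured 39.6 to 41.7 FPKM under the PU.1 cKO label and 1.34 to 1.94 FPKM under the control label. Lag3 thus stood with the 9 genes at this age, while at 4.5 months it rose where they fell. Among relatives, Slc2a6 was lower under the PU.1 cKO label (-3.51 ± 0.51) while Cd33 (1.49 ± 0.24), Siglece (1.98 ± 0.35) and Fcrl1 (3.08 ± 0.18) were higher. Of the 10 general microglial markers 6 were higher under the PU.1 cKO label and 0 lower, beside 12.4% and 17.8% of all genes. Their median difference was 1.14, beside 1.11 for the 9 genes. Border macrophage markers, of which 4 of 7 were lower under the PU.1 cKO label beside 17.8% of all genes, summed to 311 to 375 FPKM there and 525 to 1630 FPKM under the control label. Monocyte markers summed to 6.3 to 31.2 and 40.1 to 166 FPKM in the same order of groups, with 1 of 4 tested genes lower. Neutrophil markers overlapped, with 0 of 4 past the threshold: they summed to 238, 39.8 and 120.0 FPKM under the PU.1 cKO label and to 10000, 110.0 and 71.7 FPKM under the control label, where replicate 1 stood far apart. The part of these cells in the 9 genes' values was not tested. Calls at this age leaned on single libraries, for all genes tested as for the 9. With every library 1344 of 10845 genes were called higher. Without labelled PU.1 cKO replicate 1 or 3 only 3 of the 9 genes passed, beside 763 and 652 genes called higher in all. Without labelled PU.1 cKO replicate 2 or labelled control replicate 1 there were 5, beside 580 and 805. Without labelled control replicate 2 there were 8, beside 2010. These fits tested 10776 to 10845 genes.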

How the data were processed

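Libraries were made with SMART-Seq v4 and Nextera XT kits, which do not mark strand, per the labels' protocols. The authors deposited 2 tables of FPKM values, 1 per age. The submitters' processing notes name TopHat, Bowtie, Cufflinks 2.0.0 and build mm9, and the annotation is not given in the sources used here. The 15 columns were matched to samples by their descriptions, and 0 other columns were present. FPKM is not a count, so log2(FPKM + 1) was fitted with limma 3.58.1 in R 4.3.3 with a mean-variance trend, without blocks, in 1 model per table; the method was tested on simulated data. A fold on this scale understates changes of low genes. Relative depth came from the most frequent ratio between libraries among genes with a mean under 0.5 FPKM. Alternatives changed the pseudocount, filter, scaling, variance trend, replicate block, groups in the model and single replicates. Two-sided p-values were adjusted with Benjamini-Hochberg. Summed marker lists used 11 cell types. Named genes were the 9 members, Spi1, the companion list (3 largest falls, 2 largest rises in a comparison), relatives and partners past the threshold (at most 3 a family; the 4 Siglecs, and genes named as not passing, were chosen after their values were seen), and 5 nearest genes by distance. Members and lists were chosen with earlier results of these data known. Of the 9 symbols 9 matched the gene name table. No coordinates in the files' build are given. The 4 chromatin samples were not analysed here, and some listed genes are not reported here.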

Additional observations from a re-analysis of the deposited data

Results flagged for a closer look

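For 3 of the 9 genes the PU.1 cKO contrast ran in opposite directions at the 2 ages with every library on its own side, as labelled. Of all genes tested at each age, 21.9% were higher without overlap at 3 months, as labelled, and 4.56% lower without overlap at 4.5 months. The share of all genes that did both was not computed. Siglech differed by 1.23 on the log2 scale at 3 months (PU.1 cKO label minus control label), and by -0.54 between CK-p25 PU.1 cKO and CK-p25. Sparc differed by 0.58 at 3 months and by -0.29 at 4.5 months. Fcrls differed by 1.11 at 3 months and by -0.51 at 4.5 months. The difference between the ages was not tested, since the tables were deposited separately, and none of these 4.5-month differences passed the threshold. If the 3-month labels are read by source name, the 3 genes ran the same way at both ages.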

How the results depend on the processing

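The count of the 9 genes past the threshold stayed within 1.5 times its value for all 3 comparisons at 4.5 months under every alternative run: 6 to 9 and, leaving out single replicates, 5 to 8 of 9 in CK-p25 against CK; 8 to 9 in CK-p25 PU.1 cKO against CK, also 8 to 9 leaving out replicates; and 0 in CK-p25 PU.1 cKO against CK-p25. At 3 months it was 3 with no filter and 3 to 8 leaving out single replicates; the cause was not tested. With no filter the share of all genes past the threshold was 17.7% in CK-p25 against CK, 18.2% in CK-p25 PU.1 cKO against CK and 17.4% at 3 months. In CK-p25 PU.1 cKO against CK-p25 that share was 0.011% with no filter, 0.00918% after quantile normalization and 0.0184% with only the compared groups. Leaving out single replicates gave 20.9% to 41.5%, 22.1% to 46.3% and 0% to 0.231% for the comparisons at 4.5 months in the order above and 14.3% to 43.9% at 3 months. Signs turned for Olfml3 after quantile normalization (0.066 in CK-p25 PU.1 cKO against CK-p25, -0.28 at 3 months), for Selplg without CK-p25 replicate 2 (-0.060 to 0.20 over the replicates left out), and for Slc2a5 without CK-p25 replicate 3 or CK-p25 PU.1 cKO replicate 1 or 2 (-0.088 to 0.33), none of which passed. Quantile normalization moved the median of all genes by 0.12 at 3 months; relative to it the 9 differences ran from -0.37 (Olfml3) to 1.83 (Cx3cr1). Replicate numbers were not treated as pairs. For libraries of the same number, deviations from the group means correlated at -0.02 to 0.13 at 4.5 months and -0.05 to 0.17 at 3 months. For different numbers the ranges were -0.22 to 0.15 and -0.26 to 0.12. With the replicate number as a block, 8, 8 and 0 of the 9 genes passed in the comparisons at 4.5 months and 7 at 3 months. Genes called lower in all were then 1404, 1326 and 0 of 10894 at 4.5 months. At 3 months 1367 of 10845 were called higher. Siglech gained its call with the block in CK-p25 against CK (-0.46, limma adjusted p = 0.0356). Low-expressed relatives are limited by depth, which is not known. With 3 libraries a group, the intervals are wide.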

Other observations

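Genes whose profile over the 9 libraries at 4.5 months was most like the mean profile of the 9 core genes were ranked by the mean absolute difference between the profiles, each taken as log2(FPKM + 1) minus its CK mean, as a description with no test. The nearest was Cmtm6 (distance 0.0407), which stabilises the checkpoint ligand PD-L1, at 338 ± 12.7 FPKM in CK-p25 PU.1 cKO, 355 ± 27.6 in CK-p25 and 719 ± 46.9 FPKM in CK (SD, n = 3 each). The glycosyltransferase gene Mgat1 (0.0535), Commd8 (0.0576), Myadml2 (0.058) and the lysophospholipid acyltransferase gene Lpcat3 (0.0715) followed. Myadml2 was low, at 10.6 ± 1.48 FPKM in CK. The closest core gene was Sparc (0.202, position 178 of 10894) and the farthest Slc2a5 (0.73, position 5309).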
